A study of Mus musculus with 4 samples.

Results

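Macrophages of the mouse thalamus were picked from single-nucleus RNA-sequencing libraries by a gate on marker genes, and 372 nuclei of 32332 barcodes passed it. The study sequenced 4 libraries of thalamus from wild-type C57BL6 mice aged 7 to 8 weeks, 2 libraries after saline (the NS group) and 2 after Coll IV (the COL group). Coll IV is type IV collagenase, an enzyme that digests the wall of blood vessels and so causes a bleed, and it was injected at 0.01 U per 10 nl into the right ventral posterior nuclei. Tissue was collected at day 7, and 3 mice were pooled into each library, which leaves 2 replicates a group, and single nuclei were not taken as replicates. The mice behind a library cannot be told apart, and the NS mice carried the injection wound without the enzyme.

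Each nucleus was read as counts of unique molecular identifiers (UMIs), which mark single RNA molecules. A nucleus had to have at least 500 genes and under 5% mitochondrial UMIs. It was kept when F13a1, Mrc1, Ccr2 and Ms4a7 together reached 10 UMIs per 10,000 UMIs of the nucleus, when their UMIs exceeded those of the microglia genes Siglech, P2ry12 and Cx3cr1, and when Ptprc, the surface phosphatase of all white blood cells, had at least 1 UMI. Microglia were gated by the mirror rule, with the same demand for Ptprc. The gate was set with the measured values of these libraries known, so the levels of its 8 genes are a description and were not tested.

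Macrophages found in a bleed come from at least 2 sources, and the origin of the gated nuclei was not tested. Monocytes made in the bone marrow follow the chemokine Ccl2 through its receptor Ccr2 and mature in the tissue, while border macrophages live in the meninges and around vessels before any injury and carry Lyve1, Cd163 and Cd209f. In a haematoma, macrophages take up red cells and dead tissue, break haem down with haem oxygenase, store its iron in ferritin, and handle the lipid of lost membranes. Arg1, the enzyme arginase, which turns arginine into ornithine, marks wound macrophages. Gpnmb, a membrane glycoprotein of the lysosomal pathway, marks phagocytes loaded with lipid, and Ccr2 itself is lost as monocytes mature.

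The gate found macrophages almost only in COL libraries. It kept 1 of 9662 nuclei in NS replicate 1, 3 of 10384 in NS replicate 2, 157 of 5930 in COL replicate 1 and 211 of 6265 in COL replicate 2. The shares were 0.0103% (exact 95% Clopper-Pearson interval 0.000262 to 0.0577) and 0.0289% (0.00596 to 0.0844) in the NS libraries and 2.65% (2.25 to 3.09) and 3.37% (2.94 to 3.85) in the COL libraries. Both COL shares lay above both NS shares. The mean was 0.0196% ± 0.0131 (SD, n = 2) in NS and 3.01% ± 0.509 (SD, n = 2) in COL, a difference of 2.99 percentage points. This is a description with no test, because the gate was chosen with these shares known. When nuclei also had to hold under 10 UMIs per 10,000 of markers of other cells, 5 and 0 COL macrophages were left, and the difference was 0.0422 percentage points. In the COL libraries there were 0.762 and 0.687 macrophages for each gated microglia.

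**Figure D1:**
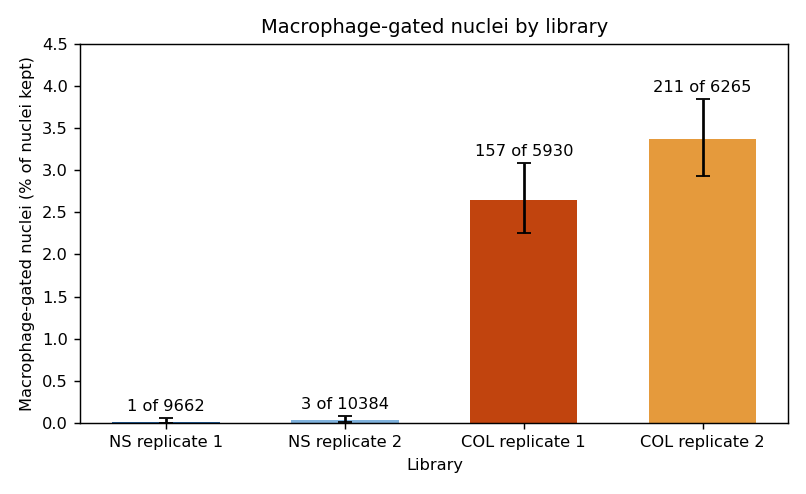
Share of macrophage-gated nuclei in each of the 4 libraries, as a percentage of the nuclei kept; the error bars are exact (Clopper-Pearson) 95% intervals for the counting of nuclei. The COL bars stand at 2.65% and 3.37%, while the NS bars, at 0.0103% and 0.0289%, hardly leave the axis.

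The 4 NS nuclei were too few to be compared with those of the haemorrhage, and their counts are given as such. The nucleus of NS replicate 1 passed through 6 UMIs of Ccr2 alone and had 5 UMIs of Fgr. The 3 nuclei of NS replicate 2 passed mainly through F13a1 (15, 2 and 6 UMIs) and Mrc1 (4, 3 and 9 UMIs), and had 0, 1 and 5 UMIs of Stab1, a scavenger receptor, and 1 of them each had a UMI of Cd163, Pf4 and Lyve1. None of the 4 had a UMI of Arg1, Gpnmb, Thbs1 or Hmox1. They were also shallow, with 3209 UMIs in NS replicate 1 and a median of 1932 in NS replicate 2. With so few NS nuclei no test of a gene between COL and NS macrophages was possible, and every gene comparison given here is within the COL libraries.

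The gated COL nuclei held 852574 and 1204704 UMIs in replicates 1 and 2, with medians of 4843 and 5149 UMIs and 2592 and 2725 genes per nucleus, close to the 4019.5 and 4231 UMIs of microglia. The 8 macrophage genes, the 4 of the gate together with Arg1, Thbs1, Gpnmb and Fgr, summed to 5965 and 5929 UMIs per 1000000 UMIs of the gated nuclei (counts per 1000000, CPM), against 152 and 208 in microglia. All 8 were found in over 10% of the macrophages of both libraries, the 4 that the gate did not read included. Of 6 border macrophage markers, Cd209f had no UMI, and Cd163 was seen in 3 and 1 nuclei. Lyve1 was seen in 1 nucleus of replicate 1 and in none of replicate 2. That list summed to 154 and 157 CPM, nearly all from the chemokine Pf4, against 7.43 and 10.8 CPM in microglia.

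Markers of other cells were also read in these nuclei. The 5 neuron markers summed to 4390 and 2503 CPM in macrophages, against 12620 and 8745 in the other nuclei of each library and 4080 and 2884 in microglia. The 5 oligodendrocyte markers summed to 1397 and 2881 CPM, against 1255 and 2418 in microglia. Rbfox1, a neuronal splicing factor, had a UMI in 100% and 99.5% of the gated nuclei. Neither doublets nor free RNA were removed. The part of this RNA in the results was not tested. Other lists differed more between the types. The 3 markers of oligodendrocyte precursors summed to 310 and 129 CPM in macrophages against 45.7 and 43.0 in microglia, of which Vcan, also a monocyte gene, made up 297 and 113 CPM in macrophages. The 5 neutrophil markers summed to 134 and 155 CPM against 622 and 542 in microglia, of which the receptor Csf3r made up 128 and 151 against 621 and 536. Astrocyte markers summed to 120 and 104 CPM against 248 and 199 in microglia. Markers of T and NK cells summed to 76.2 and 17.4 CPM, with Trac at 0, against 31.5 and 41.3 CPM in the other nuclei and 7.43 and 14.1 CPM in microglia. Dendritic cell markers (58.7 and 58.1 CPM, with Xcr1 at 0) lay below their 67.1 and 68.6 CPM in the other nuclei but above their 31.9 and 30.9 CPM in microglia, and that of pericytes and fibroblasts lay at 0 and 3.32 CPM.

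The edge of the gate was not empty. Of nuclei that met the other demands, 16 and 17 lay just inside the threshold, between 10 and 12 UMIs per 10,000, and 12 and 23 just outside, between 8 and 10. Gpnmb had a UMI in 37.5% and 35.3% of the nuclei just inside and in 75% and 60.9% of those just outside, while Arg1 had one in 25% and 5.88% inside and in 25% and 26.1% outside. The demand for Ptprc left out 32 of 189 and 40 of 251 nuclei in the COL libraries. In the NS libraries it left out 0 of 1 and 6 of 9. All nuclei past the quality filter had medians of 6501 and 4673.5 UMIs in NS and 8664.5 and 8691 in COL. The part of this depth in the shares of gated nuclei was not tested. Of the gated COL nuclei, 34.4% and 62.1% had a UMI of at least 1 of the 3 microglia genes, the share in replicate 2 being the higher.

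The markers that name these macrophages were read as follows. F13a1, the A subunit of clotting factor XIII, lay at 2411.5 and 2630.5 CPM in COL replicates 1 and 2 and had a UMI in 91.1% and 87.2% of macrophages. Mrc1, the macrophage mannose receptor, lay at 301 and 161 CPM, and Ccr2 at 319 and 421 CPM. Ms4a7, a membrane protein of macrophages, lay at 205 and 240 CPM. None of these 4 passed 50 CPM in microglia, where F13a1 lay at 23.4 and 26.2 CPM and Mrc1 at 29.7 and 46.4. The gate sets these gaps.

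The 4 markers outside the gate were as clear. Arg1 lay at 714 and 388 CPM in macrophages and at 9.56 and 10.8 CPM in microglia. Gpnmb lay at 920 and 1251 CPM against 10.6 and 37.6. Thbs1, thrombospondin, a matrix protein that acts on cell adhesion and on vessels, lay at 877 and 590 CPM against 32.9 and 17.5. In each case both macrophage libraries stood over 10 times above both microglia libraries. Fgr, a Src family kinase of myeloid cells, had a smaller gap, at 217 and 248 CPM against 34.0 and 55.8. These genes had been chosen as markers with their values known, so no p is given for them in this comparison.

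Macrophages and microglia of the same COL libraries were compared on UMI sums per library and type with edgeR's quasi-likelihood test, with the library as a block and p-values adjusted over 11247 genes. Of these genes 1306 were higher in macrophages and 1228 were lower at an adjusted p below 0.05, which is 11.6% and 10.9% of all genes tested, and the median log2 fold change of all genes was 0.00. Without the library block the counts fell to 858 and 812, and DESeq2 called 558 and 483. No named gene changed direction in any alternative, and the genes of the gate were left out of the calls. The gene lists counted here and in the later comparisons were set with earlier results of these data known. Their counts and p-values therefore describe these data and are no independent support.

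Monocyte genes were higher as a group. All 13 of the 14 listed genes that passed the filter on low counts were higher in macrophages, with a median log2 fold change of 3.49. F10, clotting factor X, was read at 172 and 159 CPM in macrophages and 3.19 and 6.05 CPM in microglia (log2 fold change 5.03 ± 0.286 (SE), adjusted p = 1.34e-08). Lyz2, the lysozyme of myeloid cells, lay at 808 and 1084 CPM against 47.8 and 106 (3.63 ± 0.179, adjusted p = 3.89e-09). Fn1, fibronectin, lay at 738 and 562 CPM against 45.7 and 106, and Ccr1, a chemokine receptor, at 133 and 94.6 CPM against 6.37 and 8.74. In each of these called genes both macrophage libraries lay above both microglia libraries, and the share of all tested genes that do so was not counted.

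Wound genes formed the next group. Beside Arg1 and Thbs1, which had been chosen as markers, 11 genes of the list could be tested, and all 11 were higher, with a median of 2.76. Ecm1, an extracellular matrix protein, lay at 147 and 134 CPM against 4.25 and 6.72 (4.57 ± 0.283, adjusted p = 2.5e-08). Tgfbi, a matrix protein induced by transforming growth factor beta, lay at 1036 and 725 CPM against 55.2 and 60.5 (3.87 ± 0.179, adjusted p = 3.73e-09). Vegfa, the growth factor of vessels, was lower in level than these, at 61.0 and 46.5 CPM against 12.7 and 5.38. Il1rn, Spp1, Mmp14, Adam8, Plau, Plaur, Mmp19 and Il4ra completed the group.

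Genes of lipid handling and the lysosome followed, with 14 of 18 tested higher beside the marker Gpnmb, a median of 1.17, and Mylip, the ligase that tags the LDL receptor for breakdown, as the single gene lower. Lgals3, a lectin that binds damaged lysosomes, lay at 468 and 484 CPM against 17.0 and 28.2 (4.35 ± 0.202, adjusted p = 3.73e-09). Apoe, the main lipid carrier of the brain, lay at 1673 and 3231.5 CPM against 176 and 698 (2.67 ± 0.189, adjusted p = 9.03e-08). Both types held more Apoe in COL replicate 2 than in replicate 1. Nr1h3, a nuclear receptor that senses oxysterols, was low in level, at 23.5 and 15.8 CPM against 2.12 and 2.02.

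Haem and iron genes were less even, with 6 of 12 tested higher, none lower, and a median of 0.70. Hmox1, haem oxygenase, was read at 904 and 320 CPM in macrophages and 49.9 and 76.6 in microglia (3.02 ± 0.311, adjusted p = 3.6e-06). The ferritin chains Ftl1 (879 and 1368 CPM against 72.2 and 208) and Fth1 (1235 and 1994 against 153 and 483) store iron, and their log2 fold changes were 3.07 ± 0.184 and 2.47 ± 0.184. Blvrb, which reduces biliverdin, was higher by 1.63 ± 0.285. Blvra and Bach1, the repressor that haem inactivates, were the remaining 2 that passed.

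Among scavenger and engulfment receptors, 6 of 9 tested were higher, with a median of 1.02. Cd36, a receptor for oxidized lipid, lay at 164 and 128 CPM against 7.43 and 10.8 (3.9 ± 0.262, adjusted p = 5.31e-08). Msr1, a scavenger receptor, lay at 426 and 295 CPM against 48.8 and 83.4. Mertk, which binds dying cells through bridging proteins, was the exception and was lower in macrophages, by 1.27 on the log2 scale. Of a longer border macrophage list of 10 genes only 5 could be tested. Pf4 (4.61 ± 0.278), Siglec1 (2.14 ± 0.485) and Stab1 (0.75 ± 0.145) were higher.

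Of the antigen presentation list, which holds class II and costimulatory genes, 7 of 10 genes were higher in macrophages and 2 were lower, with a median of 2.22. Ciita, the transactivator that switches class II genes on, was read at 38.7 and 59.8 CPM against 1.06 and 4.03 (4.13 ± 0.396, adjusted p = 1.78e-06). Cd74, the invariant chain, lay at 293 and 633 CPM against 23.4 and 74.6, and the class II chain H2-Aa at 95 and 187 CPM against 5.31 and 28.9. Of the costimulatory proteins Cd80 was higher, and Cd83 and Cd86 were lower in macrophages. Dendritic cell markers summed to 58.7 and 58.1 CPM in macrophages and 31.9 and 30.9 CPM in microglia. Without the nuclei of both types that had a UMI of Zbtb46, Cd209a, Ccr7, Xcr1 or Clec9a, 5 of the 6 genes of that list, Ciita differed by 3.24, Cd74 by 3.00 and H2-Aa by 2.66, all called. Flt3, the sixth, had a UMI in 10.2% and 12.3% of the macrophages and was not used for this removal. It left 143 and 197 macrophages, and dendritic nuclei with no UMI of the 5 genes would stay in. Of 9 chemokine genes tested 6 were higher, with a median of 3.11. Cxcl2, which draws neutrophils, had 57.5 and 49.0 CPM in macrophages and no UMI in microglia of either library, so it was at least 42.5-fold higher against a floor of 3 UMIs over both libraries. Ccl6, Ccl7 and Ccl9, chemokines for monocytes, were higher by 3.6 ± 0.239, 4.60 ± 0.491 and 3.93 ± 0.288.

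Promoters are shown for H2-Aa and H2-Eb1, a pair of class II genes called in this comparison and in each of the 3 divisions of macrophages described further on, since these genes are known to share short elements just before their starts. The sequences come from RefSeq (GRCm38.p6), read on the strand of the gene. Capitals mark the run CTGATTGG, the inverted CCAAT element known as the Y box.
H2-Aa: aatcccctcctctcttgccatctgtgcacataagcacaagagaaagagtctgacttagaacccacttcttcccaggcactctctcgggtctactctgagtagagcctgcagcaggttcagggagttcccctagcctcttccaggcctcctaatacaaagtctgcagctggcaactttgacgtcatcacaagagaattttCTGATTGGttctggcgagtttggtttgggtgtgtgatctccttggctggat
H2-Eb1: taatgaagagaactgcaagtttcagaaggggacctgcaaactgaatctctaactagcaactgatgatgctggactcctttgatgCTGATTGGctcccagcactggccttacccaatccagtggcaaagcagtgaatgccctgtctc

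The H2-Aa stretch is chr17:34287824-34288073 on the minus strand, 250 bases that end where the gene starts, and its run ends 43 bases before the start. The H2-Eb1 stretch is chr17:34305721-34305866 on the plus strand, the 146 contiguous bases next to the start that hold no annotated exon, and its run ends 54 bases before it. The same 8 letters on either strand were found in 1258 of 32851 windows of 250 bases before gene starts (3.83%), and no other motif was searched. They were not found in the windows of H2-DMa and H2-DMb1, while H2-Ab1 and Ciita had no window to read. Both genes printed lie in the class II region of chromosome 17, and Gm20513 lies on the other strand of H2-Eb1.

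What macrophages lacked was as regular. All 14 listed microglia genes outside the gate were lower, with a median log2 fold change of -2.05, in nuclei that the gate had chosen for few microglia UMIs. Sall1, a transcription factor that keeps microglial identity, lay at 11.7 and 7.47 CPM in macrophages against 210 and 163 in microglia (-4.29 ± 0.248, adjusted p = 1.47e-08). Gpr34 (5.86 and 14.1 CPM against 164 and 128) and the fructose carrier Slc2a5 (0 and 0.83 CPM against 39.3 and 42.3) were of the same kind. All 8 division genes were lower too, with a median of -2.47, among them Top2a, which untangles DNA, at 10.6 and 19.1 CPM against 136 and 186. At least 2 of the 8 division genes were seen in 5.10% and 7.11% of macrophages and in 17.0% and 20.5% of microglia.

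The largest differences over all genes repeated these groups and added others. Beside Cxcl2, Arg1 and Clec4n, a lectin receptor for fungal mannans, the highest were Ms4a4a (6.18 ± 0.411), a relative of Ms4a7, Emp1 (5.88 ± 0.315), a membrane protein, and Gpr141, an orphan receptor with a ratio of 85.4 (counting interval 28.8 to 417). Sirpb1c and Gm5150 belong to a family of near-identical copies, so their counts may be split between the copies. On the other side stood the protease Capn3 (-4.88 ± 0.249), Mlxipl (-4.83 ± 0.317), a carbohydrate-sensing transcription factor, Sall3 (-4.66 ± 0.313), the collagen gene Col27a1 (-4.54 ± 0.261) and the transcripts Gm10790 (-4.92 ± 0.243), 8030442B05Rik and A830008E24Rik, which have no established name. Among Src family kinases other than the marker Fgr, Yes1 was lower (-2.28 ± 0.302). Of 12 genes of glycolysis and low oxygen 7 were higher, such as Slc2a1, the glucose carrier, by 1.78 ± 0.269, and 2 were lower.

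**Figure D2:**
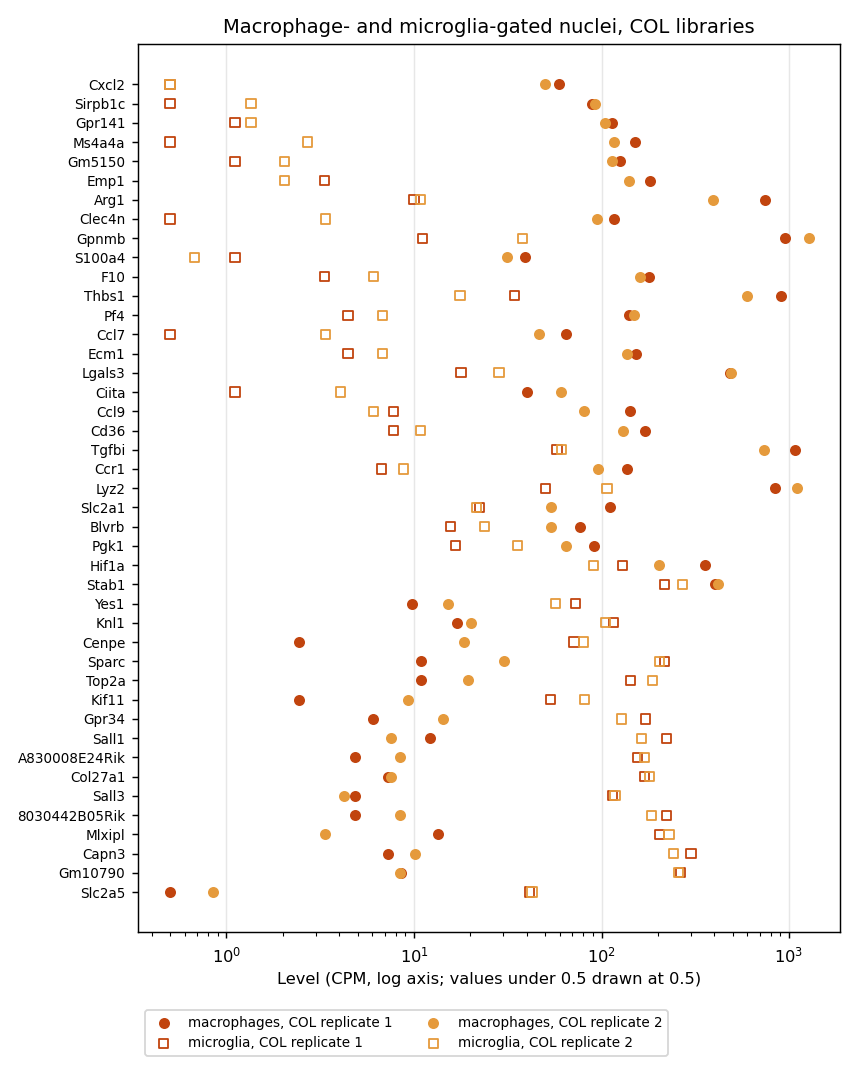
Levels of 43 named genes in macrophages (filled circles) and microglia (open squares) of the 2 COL libraries, in CPM scaled by edgeR's normalization factors, on a log axis with values under 0.5 drawn at 0.5. For genes such as Arg1, Gpnmb and Lgals3 the circles lie to the right of the squares, and for Sall1, Capn3 and Top2a to the left; Stab1 has the smallest gap.

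Within the macrophages, Arg1, Gpnmb and Ccr2 were spread unevenly from nucleus to nucleus. Arg1 had no UMI in 82 of 157 macrophages of COL replicate 1 and 141 of 211 of replicate 2, and 10 or more UMIs in 17 and 12. The 10% of nuclei richest in Arg1 (16 and 22 nuclei) held 66.5% and 77.9% of all its UMIs, and the highest nuclei had 53 and 52. Gpnmb had no UMI in 79 and 88 nuclei and 10 or more in 27 and 54, with 58.7% and 48.2% of its UMIs in the richest 10%. Ccr2 had none in 88 and 112 and 10 or more in 7 and 15, and its richest 10% held 52.9% and 53.8%. F13a1, by contrast, was missing from only 14 and 27 nuclei and kept 35.1% and 37.5% of its UMIs in its richest 10%, though the gate chose nuclei for it.

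**Figure D3:**
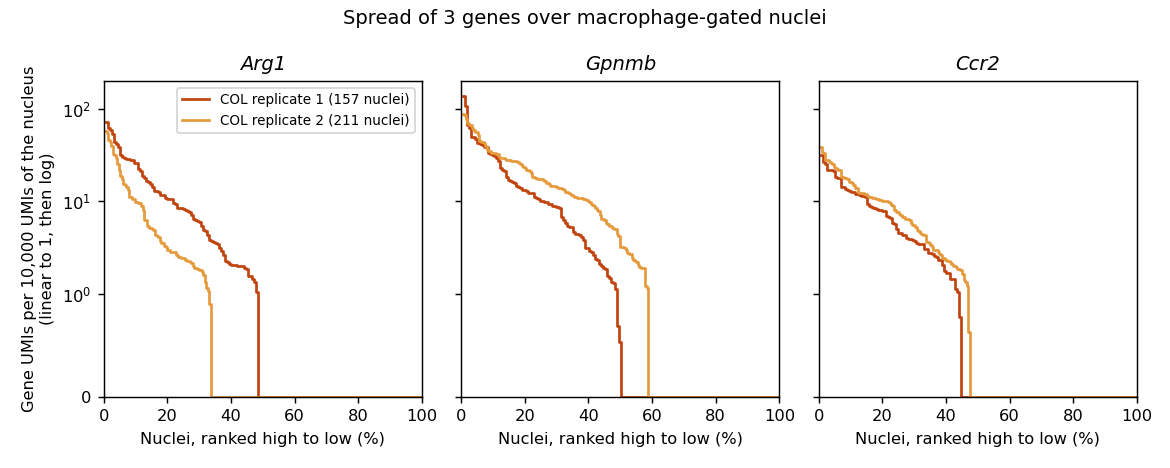
UMIs of Arg1, Gpnmb and Ccr2 per 10,000 UMIs of a nucleus, for the macrophages of each COL library ranked from high to low; the vertical axis is linear up to 1 and logarithmic above. Each curve falls from at least 1 nucleus above 30 to 0, which Arg1 reaches earliest in replicate 2, where 141 of 211 nuclei had none.

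To compare shares at a single depth, each nucleus was thinned to 2000 UMIs, which 156 and 208 macrophages reached. Arg1 then had a UMI in 41.0% of replicate 1 and 23.1% of replicate 2, Gpnmb in 37.8% and 51.9%, and Ccr2 in 32.1% and 33.7%. Replicate 1 was thus the higher for Arg1 and replicate 2 for Gpnmb, while Ccr2 was close in both at this depth, and 21.7% and 28.9% when thinned to 1000 UMIs. Before thinning the shares were 47.8% and 33.2% for Arg1, 49.7% and 58.3% for Gpnmb, and 43.9% and 46.9% for Ccr2, and the 2 libraries stood in the same order. Cells that should lack these genes had far smaller shares when thinned alike. Of 522 and 426 neurons, sampled from 2624 and 2135, 0.192% and 0.704% had Arg1, 0.575% and 2.82% Gpnmb, and 0.575% and 0.469% Ccr2. Of 302 and 312 oligodendrocytes, sampled from 1510 and 1564, the shares were 0.331% and 1.92%, 2.32% and 5.13%, and 0.331% and 1.92%. Microglia, closer in depth to macrophages, had Arg1 in 1.96% and 2.29% and Gpnmb in 2.45% and 7.52%. Before thinning, the neurons had a median of 14731 and 14941 UMIs, and the oligodendrocytes 5385 and 6065. Unthinned, all neurons had Arg1 in 3.125% and 4.40%, Gpnmb in 8.61% and 18.97%, and Ccr2 in 1.26% and 4.12%. All oligodendrocytes had them in 3.05% and 4.92%, 4.90% and 14.0%, and 1.06% and 2.75%.

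The other markers varied in the same manner. Hmox1 had a UMI in 47.4% and 25.0% of the thinned nuclei, higher in replicate 1 as Arg1 was. Thbs1 had one in 40.4% and 38.9%, and Fgr in 34.6% in both libraries. Mrc1 was the most concentrated marker of the gate, with 68.9% and 86.1% of its UMIs in the richest 10% and a UMI in 23.1% and 12.5% of thinned nuclei. Apoe and Spp1, which codes for osteopontin, were higher in replicate 2, with a UMI in 73.1% and 91.3% and in 37.2% and 50.96%. The 2 COL libraries therefore differed in several of these genes, and with 1 value per library no test of that difference was made.

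Each thinned nucleus was then sorted by which of the 3 genes it held. Gpnmb and Ccr2 were seldom read together, in 4 nuclei of replicate 1 and in 11 of replicate 2 without Arg1, and all 3 genes in 0 and 6. Ccr2 is a gene of the gate and Gpnmb is not, and the part of the gate in this low overlap was not tested. Arg1 with Gpnmb was found in 28 and 27 nuclei (17.9% and 13%), Arg1 alone in 22 and 10, and Gpnmb alone in 27 and 64 (17.3% and 30.8%). Ccr2 alone was found in 32 and 48 (20.5% and 23.1%) and with Arg1 but without Gpnmb in 14 and 5. None of the 3 was read in 29 and 37 nuclei (18.6% and 17.8%), which at 2000 UMIs does not show that they lacked them. The 0 of 156 nuclei with all 3 leaves an exact 95% interval of 0 to 2.34%.

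**Figure D4:**
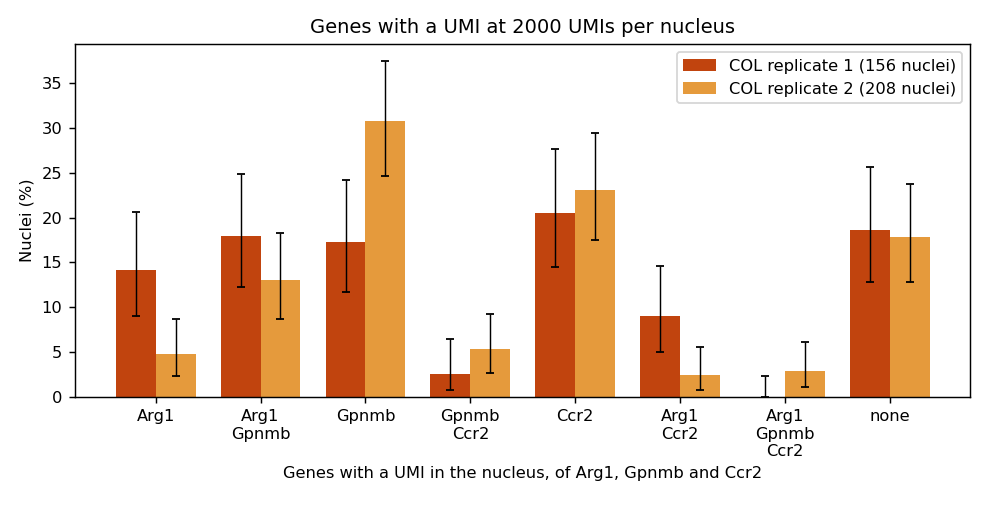
Percentage of the macrophages of each COL library, thinned to 2000 UMIs, by which of Arg1, Gpnmb and Ccr2 had a UMI; bars are shares and error bars are exact (Clopper-Pearson) 95% intervals. Nuclei with Gpnmb and Ccr2 but without Arg1 make up 2.56% and 5.29%, those with all 3 genes 0% and 2.88%, while Gpnmb alone makes up 17.3% and 30.8% and Ccr2 alone 20.5% and 23.1%.

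Seen by pairs, Ccr2 had a UMI in 6.78% of the replicate 1 nuclei with Gpnmb and in 47.4% of those without, and in replicate 2 in 15.7% and 53.0%. By share of nuclei, Arg1 and Gpnmb went the other way: Gpnmb was read in 43.8% and 68.8% of nuclei with Arg1 and in 33.7% and 46.9% of those without. Both genes were read in 28 and 33 nuclei, against 24.2 and 24.9 if the genes were independent. By level Gpnmb was not higher with Arg1, at 780 and 1207 CPM against 1020.7 and 1260.7 without. Thbs1 was read in 53.1% and 64.6% of nuclei with Arg1 and in 31.5% and 31.2% of those without, and Hmox1 in 65.6% and 39.6% against 34.8% and 20.6%. In the shares of every one of these pairs both libraries showed the same order. A nucleus without Ccr2 had to pass the gate by the other 3 genes, so part of its higher F13a1 share, 90.6% and 89.9% against 74.0% and 67.1%, is set by the gate. F13a1 was also read more often in nuclei with Gpnmb, in 96.6% and 93.5% against 78.35% and 70.0% of those without. The part of the gate in the low overlap of Gpnmb and Ccr2 was not tested.

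For each of the 3 genes, macrophages with a UMI at 2000 UMIs were compared with those without in the full UMI sums, with the library as a block. The gene that made the classes was left out of the calls with those of the gate. Each fit rests on 4 sums, and nuclei without a UMI may still hold the transcript. The 3 comparisons divide the same nuclei, so their values are set side by side and are not independent of each other. All of them leaned on the block: without it the calls fell to 0 higher and 0 lower for Arg1 (461 genes at an unadjusted p under 0.05), 0 and 0 for Gpnmb (634 genes) and 2 and 0 for Ccr2 (781 genes). DESeq2 with the block called 7 and 3, 30 and 16, and 27 and 16.

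Nuclei with Arg1 (64 and 48, against 92 and 160 without) were richer in ferritin, haem oxygenase and chemokines, and poorer in class II genes. Of 7504 genes 127 (1.69%) were higher and 63 (0.84%) lower at an adjusted p below 0.05. The classes were close in depth, at medians of 4859.5 and 5278 UMIs with Arg1 and 4810 and 5111.5 without. Gpnmb did not pass the test between them (log2 fold change -0.20 ± 0.154, adjusted p = 0.685).

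The haem and iron list had 3 of 10 genes higher and none lower. Fth1 was read at 2054 and 3502 CPM in nuclei with Arg1 and at 667 and 1507 CPM in those without (1.43 ± 0.142, adjusted p = 6.81e-20). Hmox1 lay at 1451 and 578 CPM against 521 and 238 (1.40 ± 0.170, adjusted p = 2.42e-13), and Ftl1 at 1239.8 and 2693 against 627 and 943 (1.28 ± 0.150). Within each library the nuclei with Arg1 held more of all 3. The other 7 genes of the list did not pass.

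Chemokines were higher as well. Ccl9 was read at 229 and 214 CPM with Arg1 and 73.9 and 35.3 without (2.11 ± 0.256, adjusted p = 2.42e-13), and Ccl6 at 331 and 333 against 118 and 67.3 (1.91 ± 0.224, adjusted p = 3.17e-14). Ccl2, the ligand of Ccr2, was higher by 1.32 ± 0.264. Cxcl2 depended on a single library, at 48.6 CPM with Arg1 and 63.9 without in replicate 1 but 153 and 15.5 in replicate 2, and its log2 fold change of 1.52 became -0.38 without COL replicate 2. In all 4 of 7 chemokine genes tested were higher.

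Some genes that answer to low oxygen were among those higher. Egln3, an oxygen-dependent prolyl hydroxylase that is itself induced by low oxygen, lay at 82.8 and 109 CPM with Arg1 and 20.0 and 24.3 without (2.13 ± 0.351, adjusted p = 5.81e-07). Vegfa (1.30 ± 0.329), Pgk1 (1.09 ± 0.280), Slc2a1 (1.02 ± 0.282) and Pdk1 (1.19 ± 0.369), all of the glycolysis and low oxygen list, made up 4 of its 12 genes, and its median was 0.78 against -0.01 for all genes. Pdk1 was the weakest, at an adjusted p of 0.0498, and lost its call in 10 alternatives, and Vegfa and Pgk1 lost theirs in 5 each. Cd24a, a small surface glycoprotein, and Eif4ebp1, a brake on translation, were the other large ones, by 2.29 ± 0.467 and 1.99 ± 0.468.

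In the wound list 5 of 10 genes were higher, with Thbs1 at 1039.9 and 1244 CPM against 765 and 376 (1.10 ± 0.163, adjusted p = 8.73e-09). Fn1 was read at 1000 and 1027 CPM against 557 and 407 (1.11 ± 0.165), and F10 and Chil3, a chitinase-like protein that lost its call in 5 alternatives, were higher as well. Pf4 lay at 237 and 245 CPM against 63.9 and 116 (1.44 ± 0.237). Of the lipid and lysosome list 7 of 19 were higher and none lower, from 0.50 for Ctsd to 1.34 for Lpl, and Lpl lost its call in 9 alternatives and Fabp5 in 5. Apoe was not among them, at 0.06 ± 0.133.

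Of the antigen presentation list 6 of 8 genes tested were lower with Arg1, with a median of -2.13, namely Ciita, H2-Eb1, H2-Aa, H2-Ab1, Cd74 and the costimulatory Cd86. Ciita had no UMI in replicate 1 and 6.80 CPM in replicate 2 in nuclei with Arg1, against 65.9 and 74.0 CPM without, a ratio of 22.9 (counting interval 6.18 to 192) in favour of nuclei without. H2-Eb1 lay at 25.7 and 3.40 CPM against 120 and 176 (-3.21 ± 0.380, adjusted p = 5.44e-14), and H2-Aa at 31.4 and 44.2 against 140 and 234 (-2.27 ± 0.308, adjusted p = 1.67e-10). H2-Ab1 and Cd74 were lower by like amounts (-2.26 ± 0.309 and -2.00 ± 0.210). Outside the list Gm15987 (-4.47 ± 0.612) and Anapc15 (-2.93 ± 0.430), a subunit of the anaphase-promoting complex, were lower too, as were the division genes Diaph3 and Mki67 (-2.36 ± 0.667 and -2.08 ± 0.621). Markers of dendritic cells, which also carry class II molecules, summed to 28.6 and 10.2 CPM with Arg1 and 79.9 and 74.0 CPM without. When nuclei with a UMI of Zbtb46, Cd209a, Ccr7, Xcr1 or Clec9a, the list without Flt3, were left out, Ciita differed by -3.42, H2-Eb1 by -2.63 and H2-Aa by -1.68, all called, and 83 genes were higher and 43 lower. This left 62 and 47 nuclei with Arg1 and 80 and 147 without, and dendritic nuclei with no UMI of those genes would stay in.

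Nuclei with Gpnmb (59 and 108, against 97 and 100 without) had higher levels of 8 of 17 genes of the lipid and lysosome list and lower levels of 5 of 9 antigen presentation genes and 5 of 13 monocyte genes. Of 8340 genes 114 (1.37%) were higher and 85 (1.02%) lower. The classes differed in depth, at medians of 5386 and 5338.5 UMIs with Gpnmb and 4600 and 4516.5 without, and in the dendritic cell list, at 39.6 and 21.3 CPM against 72.4 and 103. The median mitochondrial share was lower with Gpnmb, at 0.360% and 0.475% against 0.461% and 0.694%, as was the share of nuclei with a microglia gene of the gate, at 25.4% and 54.6% against 40.2% and 71.0%. The part of these measures was not tested. These calls were fragile: without the 25% of nuclei richest in markers of other cells, 0 genes were higher and 1 was lower in edgeR, with 764 genes at an unadjusted p under 0.05, although no named gene turned its direction.

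The lipid and lysosome list had 8 of 17 genes higher, none lower, and a median of 0.86. Fabp5, a fatty acid binding protein, was read at 178 and 315 CPM with Gpnmb and 46.3 and 103 without (1.76 ± 0.220, adjusted p = 0.00145). Apoe lay at 2595 and 3957 CPM against 1018 and 2351 (1.07 ± 0.154, adjusted p = 0.00205), and the lysosomal protease Ctsd at 1451.5 and 1447 against 674 and 768 (1.04 ± 0.143). Lgals3, Lipa, Plin2, Ctsb and Abcg1 were the others. Without those 25% of nuclei the values were 1.70, 1.05 and 1.06 for Fabp5, Apoe and Ctsd, with an adjusted p of 0.105 for each.

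Other lists were mixed. Of 12 wound genes 2 were higher and Tgfbi was lower (-0.76 ± 0.147, adjusted p = 0.0142), with a median of -0.20. Of 9 scavenger and engulfment genes 2 were higher and Colec12 was lower (-2.55 ± 0.582, adjusted p = 0.0354). Cxcl2 was the only chemokine gene called, and it was lower (-1.57 ± 0.324, adjusted p = 0.0196). Spp1 was read at 693 and 1999.7 CPM with Gpnmb and 282 and 537 without (1.67 ± 0.173, adjusted p = 0.000327), and Cd36 at 314 and 185 against 58.3 and 59.1 (2.07 ± 0.245, adjusted p = 0.000969). Mertk, lower in macrophages than in microglia, was higher in the macrophages with Gpnmb, at 821 and 1167 CPM against 487 and 620 (0.87 ± 0.149). Tns1, a protein that links integrins to actin, and Ahnak2 had large gaps among the genes that were higher (3.17 ± 0.447 and 3.29 ± 0.640), both at under 100 CPM. The adaptor Nck2 (1.90 ± 0.346) and Gm15943 (1.94 ± 0.416), which has no established name, were higher as well. Ferritin was higher here too, by 1.17 ± 0.154 for Ftl1 and 0.99 ± 0.147 for Fth1, whereas Hmox1 did not pass (0.41 ± 0.191, adjusted p = 0.413).

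Of the monocyte list 5 of 13 genes were lower and Lyz2 was higher, while Ly6c2 (-0.16, adjusted p = 0.951) and S100a4 (-0.75, adjusted p = 0.592) did not pass. Plac8, a gene of young monocytes, lay at 2.83 and 12.2 CPM with Gpnmb and 86.5 and 53.5 without (-2.85 ± 0.492, adjusted p = 0.00683). Vcan, the matrix proteoglycan versican, lay at 65.1 and 66.9 against 463 and 170 (-2.02 ± 0.287), and Fn1 at 311 and 315 against 1044 and 856 (-1.55 ± 0.161). Gm15987, with no established name, was lower too (-2.97 ± 0.381). Of the antigen presentation list 5 of 9 were lower and none higher. Cd74, at 42.4 and 210 CPM against 473 and 1152 (-2.70 ± 0.216, adjusted p = 5.51e-05), kept its call without the nuclei richest in other markers, with an adjusted p of 0.0249. Arg1 did not pass (0.45 ± 0.207, adjusted p = 0.413). Its value was -0.06 without COL replicate 2, and 0.86 and called (adjusted p = 0.000106) with classes from unthinned counts. Among Src family kinases Fgr was lower, at 127 and 193 CPM against 282 and 306 (-0.83 ± 0.197, adjusted p = 0.0418), and lost its call in 5 alternatives.

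Nuclei with Ccr2 (50 and 70, against 106 and 138 without) were richer in class II and monocyte genes and poorer in genes of lipid handling and the lysosome. Because Ccr2 is a gene of the gate, nuclei without it had to pass by F13a1, Mrc1 or Ms4a7, so the gate has a part in this division, and how far it sets these calls was not tested. There were 263 of 8074 genes (3.26%) higher and 235 (2.91%) lower. Several measures moved with this split and their part in it was not tested. The nuclei with Ccr2 had fewer UMIs, at medians of 4070 and 4471.5 against 5132.5 and 5310.5, a higher median mitochondrial share, at 0.662% and 0.880% against 0.301% and 0.475%, and more of the dendritic cell list, at 114 and 156 CPM against 37.5 and 17.7.

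Of the antigen presentation list 6 of 10 genes were higher, none lower, with a median of 1.88. Ciita was read at 135 and 176 CPM with Ccr2 and 1.63 and 8.26 CPM without (4.78 ± 0.411, adjusted p = 1.21e-27), and was called with DESeq2 and without the library block too. H2-DMb1, a chain of the molecule that loads peptides, lay at 37.9 and 79.4 CPM against 1.63 and 11.8 (3.02 ± 0.524), and H2-Aa at 236 and 400 against 40.8 and 99.2 (2.16 ± 0.229, adjusted p = 6.29e-18). H2-Ab1, H2-Eb1, whose promoter was shown with that of H2-Aa, and Cd74 were higher by 2.13 ± 0.228, 1.89 ± 0.251 and 1.87 ± 0.176. Without the nuclei that had a UMI of Zbtb46, Cd209a, Ccr7, Xcr1 or Clec9a, Ciita differed by 4.01, H2-DMb1 by 2.91 and H2-Aa by 1.94, all called, and 204 and 163 genes passed. This left 42 and 58 nuclei with Ccr2 and 100 and 136 without. Dendritic nuclei with no UMI of those genes would stay in, and their part in these values was not tested.

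Monocyte genes were higher with Ccr2 in 8 of 13 cases, with a median of 1.14. Plac8 lay at 147 and 70.9 CPM against 14.7 and 14.2 (2.78 ± 0.387, adjusted p = 3.17e-10) and Vcan at 782 and 221 against 109 and 68.5 (2.31 ± 0.211). S100a4, a calcium-binding protein of migrating cells, lay at 79.9 and 68.0 CPM against 21.2 and 15.3 (2.00 ± 0.410). Dpp4, a surface peptidase, and Grap2, an adaptor of immune receptors, had larger gaps at lower levels (4.36 ± 0.616 and 3.77 ± 0.626). Gm15987, a transcript with no established name, lay at 114 and 224 CPM with Ccr2 and 4.89 and 9.44 without (4.49 ± 0.382), and it was lower with Arg1 and with Gpnmb. Among Src family kinases Fgr (0.93 ± 0.196), Fyn (0.98 ± 0.219) and Lyn (0.84 ± 0.156) were higher.

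On the lower side, 12 of 18 genes of the lipid and lysosome list fell in nuclei with Ccr2 and none rose, with a median of -0.70. Gpnmb was read at 215 and 377 CPM with Ccr2 and 1196 and 1610 without (-2.28 ± 0.180, adjusted p = 1.93e-32). Cd36 lay at 16.8 and 51 against 222 and 161 (-2.35 ± 0.309), and Mertk at 311 and 442 against 747 and 1119 (-1.33 ± 0.176). Plpp3, a lipid phosphatase, and Csf1, the growth factor of macrophages, fell by 2.99 and 2.65 on the log2 scale in the nuclei with Ccr2. All of these were lower within each library. Lonrf3 (-2.72 ± 0.444), 5033421B08Rik (-2.71 ± 0.404), the hexokinase Hk3 (-1.62 ± 0.370) and Bnip3 (-1.60 ± 0.433), a gene of mitochondrial clearance, were lower over both libraries.

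Haem and iron genes were lower in 4 of 12 cases and higher in none. Slc40a1, ferroportin, the channel that lets iron out of cells, had 4.21 and 5.67 CPM with Ccr2 and 75.1 and 26 without, a ratio of 9.17 (counting interval 3.01 to 45.6) in favour of nuclei without. Blvrb (-1.31 ± 0.375), Hmox1 (-0.64 ± 0.178) and Fth1 (-0.62 ± 0.161) were called lower as well, and Blvrb and Hmox1 each lost their call in 6 alternatives. Hmox1 lay at 501 CPM against 1060.5 in replicate 1 but at 306 against 328 in replicate 2, and Fth1 was lower in replicate 1 alone. Arg1 lay at 395 and 153 CPM against 837 and 487 (-1.37 ± 0.187, adjusted p = 1.28e-10), but its value was only -0.06 when the classes were made from unthinned counts. Of 11 wound genes tested, 3 were higher with Ccr2, and 2, Arg1 and Spp1, were lower. Tgfbi lay at 1708 and 1157 CPM against 778 and 544 (1.09 ± 0.159, adjusted p = 2.86e-09). Il1rn, low in level, was higher by 2.79 ± 0.641. Thbs1, higher with Ccr2 by 0.63 ± 0.165, rested on COL replicate 1 (1506 CPM against 635) and came to -0.03 without it.

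**Figure D5:**
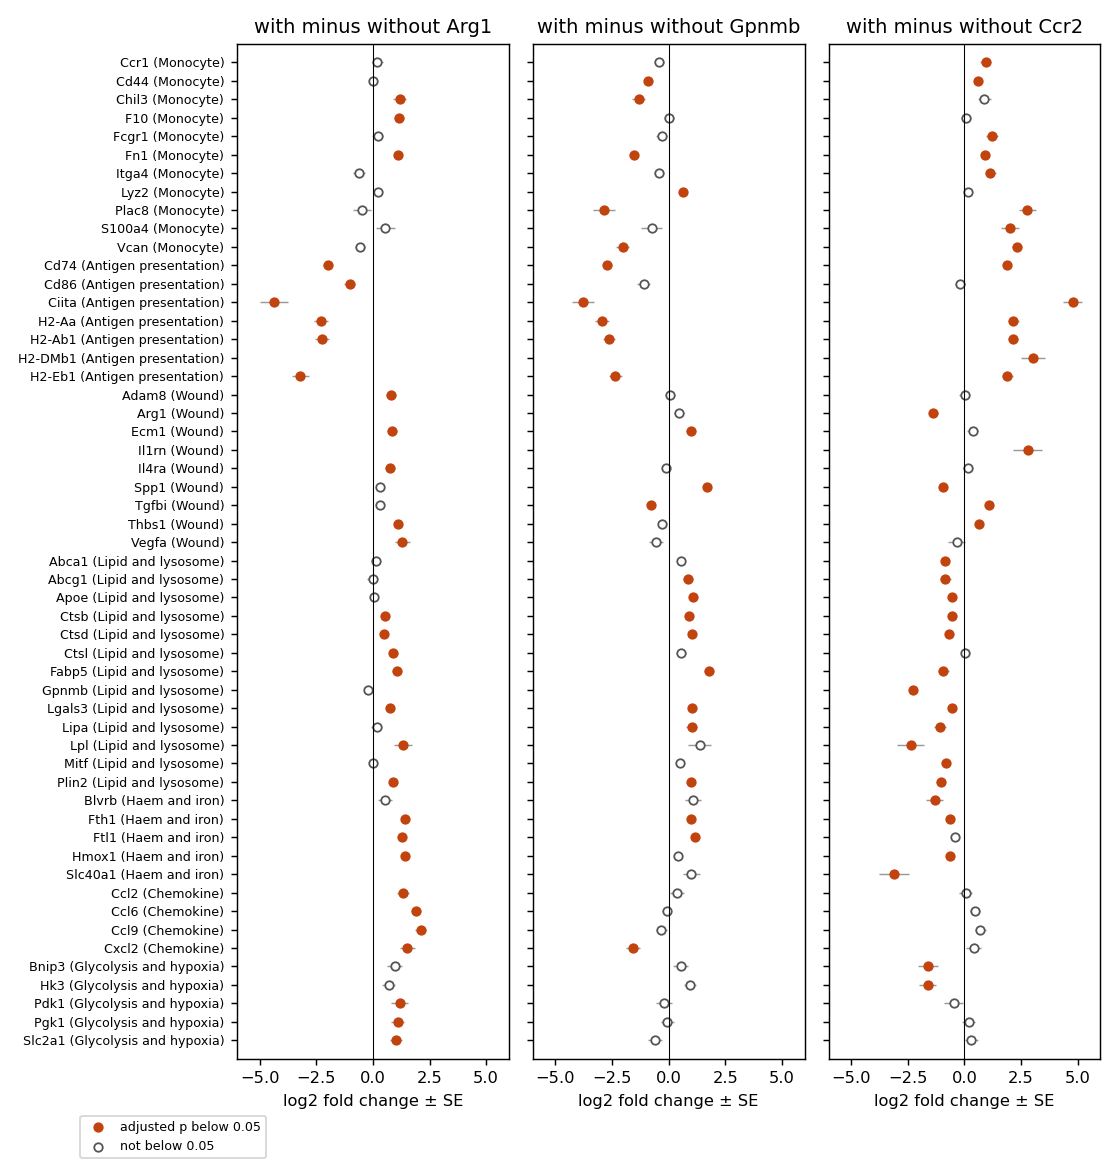
Log2 fold change ± SE (edgeR, library as a block) between COL macrophages with and without a UMI of Arg1, Gpnmb or Ccr2, for genes called in at least 1 of the 3 comparisons. The lists drawn are monocyte, antigen presentation, wound, lipid and lysosome, haem and iron, chemokine, and glycolysis and low oxygen. Called genes of the other lists, such as Cd36 and Fgr, are not drawn. Filled points had an adjusted p below 0.05, and a missing point marks a gene under the filter or the gene that made the classes. Ciita lies at -4.35, -3.78 and 4.78 in the 3 panels, Fth1 at 1.43, 0.99 and -0.62, and Spp1 at 0.32 (not called), 1.67 and -0.93.

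Side by side, the 3 comparisons differed in which groups they held. Ccl6 and Ccl9 were called with Arg1 (1.91 and 2.11) and not with Gpnmb (-0.09 and -0.32) or Ccr2 (0.48 and 0.70). Spp1 and Apoe were called with Gpnmb (1.67 and 1.07) and with Ccr2 in the other direction (-0.93 and -0.55), while in the Arg1 comparison their values were 0.32 and 0.06. Fn1 was higher with Arg1 (1.11) and Ccr2 (0.92) and lower with Gpnmb (-1.55). Whether these differences between comparisons exceed their error was not tested, because the classes share their nuclei.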

How the data were processed

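For each of the 4 libraries the authors deposited a matrix of raw UMI counts, genes by nuclear barcodes, with no normalization. Per the labels and methods, nuclei were run on a 10x Chromium system and reads were processed with Cell Ranger 1.2.0 against mm10. The handling of introns and strand is not given in the sources used here, so reads of overlapping genes may be mixed. Libraries held 68746459 to 77557870 UMIs, and all 40091 gene identifiers matched GENCODE M21.

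Nuclei were gated as described. Members, gene lists and tests were chosen with earlier results of these data known. The classes were made from counts thinned to 2000 UMIs (seeded). UMIs were summed per COL library and class and tested with edgeR 4.0.16 (TMM scaling, the filterByExpr filter and the quasi-likelihood test, with p-values adjusted after Benjamini-Hochberg and called below 0.05) under R 4.3.3, with the library as a block, since both classes came from the same library. DESeq2 1.42.0 was an alternative. Tests were checked on counts simulated with no difference between libraries, unlike the real ones. There edgeR recovered 83% to 90% of 4-fold changes and 37% to 52% of 2-fold changes. DESeq2 recovered 4% to 18% of 2-fold changes, so a gene that did not pass may still differ. Each SE was worked back from the test, as the absolute log2 fold change over the square root of its F statistic. CPM in the text are plain, without TMM scaling. Neuron and oligodendrocyte references were nuclei without Ptprc with at least 20 or 10 UMIs per 10,000 of their markers. Intervals cover counting error only, and barcodes shared between libraries numbered 8 to 31 per pair, 3 of them gated. Nuclei within a library share mice and preparation. The block takes out the difference between the 2 libraries, so p-values set a class difference against how far it varied between them. That variation was shared over genes by the fit and may be technical.

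Genes were taken for naming by a rule: the 8 markers and Ptprc, then the called genes of at least 50 CPM with the largest changes (8 each way against microglia, 5 each way in the splits) and the leading called genes of each list (up to 4 or 3). Some of the last are given in counts only, and other list members were named to complete a count. The permutation test planned for the share of gated nuclei is left out, because the gate was chosen with those shares known. Some results are not reported here.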

Additional observations from a re-analysis of the deposited data

How the results depend on the processing

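The share of macrophages kept its direction in all settings. The difference between COL and NS ran from 2.628 to 3.348 percentage points when a library was left out, was 2.988 with the replicate block, 3.817 and 1.933 at thresholds of 5 and 20 UMIs per 10,000, and 0.04216 with other cell markers under 10 per 10,000. That last setting left 5 and 0 COL macrophages and could not be fitted for genes. The COL against NS gene test and its alternatives were not run. The library pairs the classes by origin. Settings without the 25% richest in other markers, without nuclei with any of 5 dendritic cell genes (not Flt3) and without thinning of shares were chosen after seeing the data.

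Calls for macrophages against microglia were 858 higher and 812 lower without the library block and 558 and 483 with DESeq2. For Arg1, counts were 18 and 19 without the filter, 0 and 0 without the block, 7 and 3 with DESeq2, 49 and 27 at a threshold of 20, 65 higher without the 25% richest in other markers, 83 higher without those 5 genes' nuclei, and 127 lower at a threshold of 5. For Gpnmb, they were 0 and 0 without the block, 30 and 16 with DESeq2, 187 and 184 with unthinned classes, 206 and 174 at 5, 222 and 231 without the Ptprc demand, 0 and 1 without the 25% richest in other markers, and 162, 141 and 131 lower without the filter, with DESeq2's size factors and without those 5 genes' nuclei. For Ccr2, they were 2 and 0 without the block, 27 and 16 with DESeq2, and 137 and 154 lower at 5 and 20. The causes were not tested.

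Among genes, 4 values reversed: Cxcl2 with Arg1 to -0.38 and Arg1 with Gpnmb to -0.06 without COL replicate 2 (2.93 and 0.96 without replicate 1), Thbs1 with Gpnmb to 0.30 with unthinned classes, and Thbs1 with Ccr2 to -0.03 without COL replicate 1 (1.15 without replicate 2). Mean shares of nuclei with a gene over single COL libraries ran from 23.08% to 41.03% for Arg1, 37.82% to 51.92% for Gpnmb and 32.05% to 33.65% for Ccr2, and the Ccr2 mean was 25.29% at 1000 UMIs, 45.44% unthinned and 29.74% without those 5 genes' nuclei. With 2 libraries per group and shallow nuclei, genes at a few CPM could not be compared.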
